A study of Drosophila melanogaster with 27 samples.

Results

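Among the H4K20me1 peaks of wild-type Drosophila melanogaster wing discs, 1428 peaks of intermediate width lay over 2 or more protein-coding genes at once. They were chosen by peak width and position alone: a width above 150 bp and below 10000 bp, and an overlap of at least 1 bp with at least 2 gene bodies of the RefSeq table for the Release 6 (dm6) assembly. They made up 25.8% (95% Wilson interval 24.7 to 27.0) of the 5529 peaks in this width range and were part of a list of 6914 peaks in all. Since width, position and gene overlap chose the peaks, the values below describe them and are not tested.

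Monomethylation of lysine 20 of histone H4 is written by the methyltransferase Set8, rises as cells pass from S phase into mitosis, and is bound by proteins with MBT repeats such as L(3)mbt. In flies and mammals the mark is commonly found across the bodies of transcribed genes. The Drosophila genome is compact, so that gene bodies often lie inside one another, share their ends or stand only a short stretch apart, and a peak in such a place cannot be given to 1 gene.

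The wing disc, an epithelial sac of the larva, gives rise to the wing and notum of the fly. The peak list is named for H4K20me1 against no primary antibody, in the labels of 6 Oregon-R libraries. These were made with an antibody against H4K20me1 (n = 3) or without primary antibody (n = 3). All were made by CUT&RUN, in which an antibody brings micrococcal nuclease to chromatin and the cut fragments are sequenced. All 6 libraries were from female wandering larvae of instar 3 of the Oregon-R wild-type strain, raised at 25 °C, with 20 discs in each library. The other 8 groups of the study (21 libraries; Set8 and H4K20 mutants and their controls) were not analysed here. The list holds 1 set of peaks with no value per library, so depth, peak strength and the spread between replicates are unknown. The smallest distance between neighbouring peaks anywhere in the list was 1050 bp. The intervals given beside shares are 95% Wilson intervals. They cover counting error only, and neighbouring genes are not independent.

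The 1428 peaks covered 4.6 Mb, which was 26.3% of all sequence under peaks. Their median width was 2650 bp (quartiles 1300 and 4700 bp), against 1050 bp (quartiles 350 and 2450 bp) for the 4029 peaks of the same width range over 1 gene. Another 72 peaks of this range touched no protein-coding gene. Wide peaks held several genes more often than narrow ones, which an overlap rule favours. The share with 2 or more genes was 8.77% (interval 7.10 to 10.8) among peaks above 150 and up to 300 bp, 23.9% (interval 21.5 to 26.5) above 1000 and up to 2000 bp, and 49.0% (interval 44.0 to 53.9) above 5000 and up to 7000 bp.

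**Figure D1:**
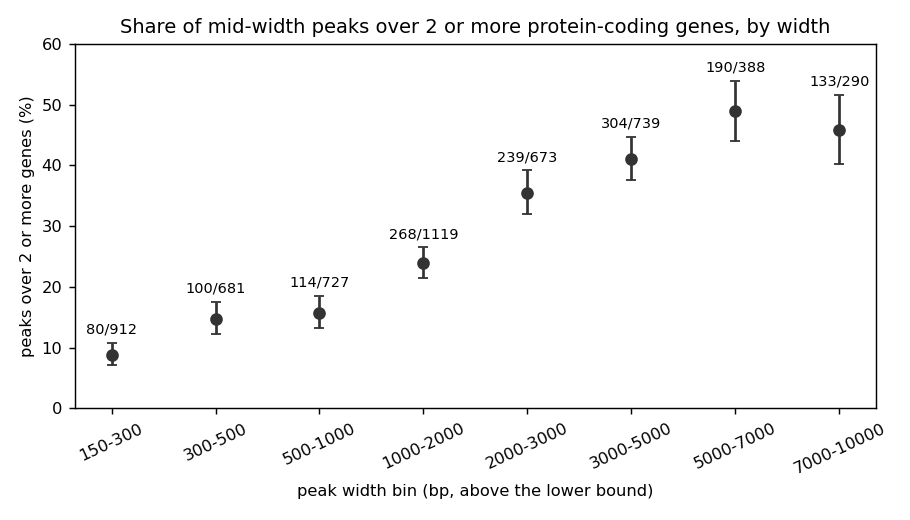
Share of mid-width peaks that overlapped 2 or more protein-coding genes (vertical axis, percent) in bins of peak width (horizontal axis, bp); bars are 95% Wilson intervals and labels give the counts. The share rose from 8.77% in the narrowest bin to 49.0% between 5000 and 7000 bp and was 45.9% in the widest bin.

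Most of these peaks held exactly 2 genes. There were 1142 such peaks (80.0%), 228 with 3 genes, 46 with 4, 10 with 5, and 1 each with 6 and 7. The share of mid-width peaks that held several genes was alike on the large arms, at 25.1% on 2L, 26.4% on 2R, 26.5% on 3L, 26.8% on 3R and 25.7% on X, with overlapping intervals. On the small chromosome 4 it was 2 of 74 peaks (2.70%, interval 0.744 to 9.33).

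At the limits of the rule, 44 peaks had the narrowest width admitted, 200 bp, and 5 had the widest, 9950 bp. Just outside it, 97 of the 1057 peaks of 150 bp overlapped 2 or more genes, and the nearest multi-gene peaks on the wide side measured 10050 to 10100 bp. The 5 widest lay over Kr-h1, an ecdysone and juvenile hormone response factor, with CG45075 and CG9175; over fra, the netrin receptor, with CG30056 and CG33775; over Fur2, a furin-like protease, with CG9992; over ens, RfC4, Rop and Ras64B; and over CG16953, Septin2, Srp72 and Pus1. The peaks with 4 genes held RfC4 and Rop, and Septin2 and Srp72, wholly. At the limit of the overlap, the smallest overlap with a gene was under 50 bp, the grid step of the peak boundaries, in 86 of 1428 peaks (6.02%), and it was 1 bp in 1 peak. Conversely, 60 of the 4029 peaks over 1 gene came within 50 bp of a second.

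The genes under a peak were sorted by how their bodies lie to each other. A pair was nested when one body lay wholly in the other, overlapping when the bodies shared at least 1 bp but neither held the other, and adjacent when they shared none. A peak with several pairs was placed by its closest relation, nested before overlapping before adjacent. The 3 classes were of nearly equal size: 480 peaks were nested (33.6%, interval 31.2 to 36.1), 480 overlapping (33.6%, interval 31.2 to 36.1) and 468 adjacent (32.8%, interval 30.4 to 35.3). This balance depended on the gene table, on how bodies were compared and on counting peaks rather than pairs. Of the 2238 pairs under these peaks, 1129 were adjacent (50.4%), 564 overlapping (25.2%) and 545 nested (24.4%). Adjacent pairs in this count include genes with another gene between them. With all annotated genes in place of protein-coding ones, nested peaks rose to 44.3% and adjacent peaks fell to 25.7%. Of the 286 peaks with more than 2 genes, 211 held pairs of more than 1 class, and 21 held all 3.

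**Figure D2:**
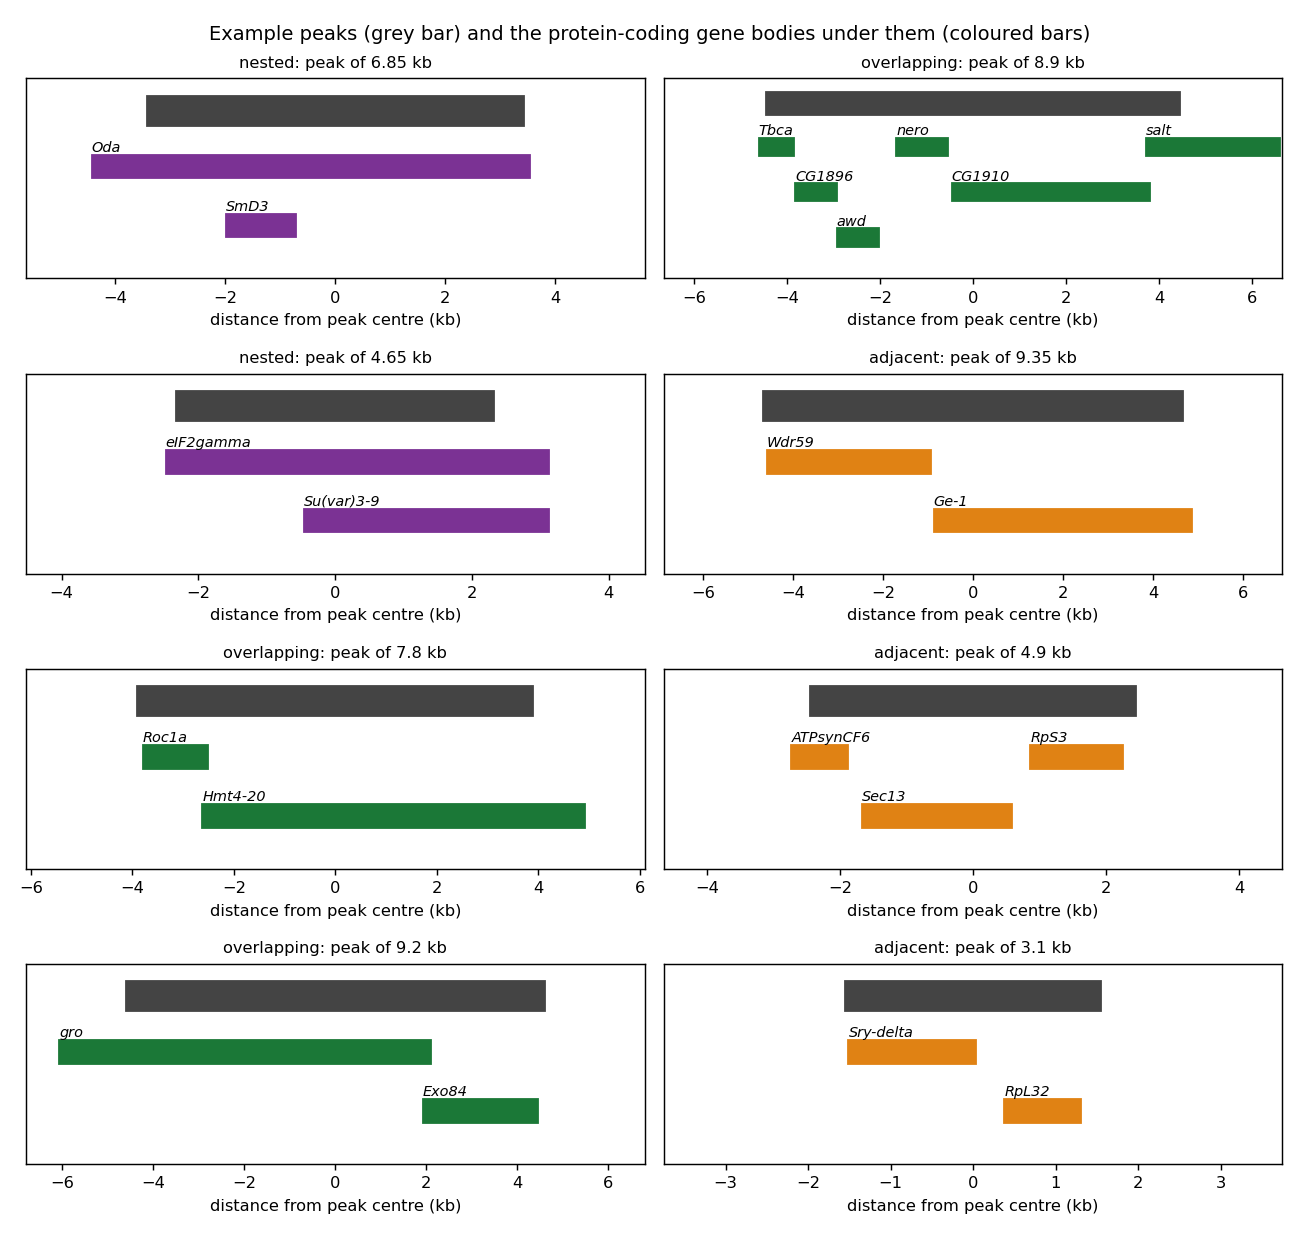
Maps of 8 peaks drawn to scale, with distance from the peak centre in kb on the horizontal axis; the grey bar is the peak and the coloured bars are protein-coding gene bodies, on separate rows so that they can be told apart, purple in nested, green in overlapping and orange in adjacent loci (bodies that run past the frame are cut). In the overlapping and adjacent loci shown, the peak runs across the ends where the genes meet, as over Sec13 and RpS3, which both lie wholly under a peak of 4.9 kb.

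Nested pairs came in 3 forms. Of the 370 nested peaks with exactly 2 genes, 268 (72.4%) had an inner gene strictly inside the outer one, 48 (13.0%) had genes with 1 end in common, and 54 (14.6%) had genes that RefSeq gives the same start and end, as for proteins read from 1 shared transcription unit. Because any peak over an inner gene is also over the outer one, a peak over both cannot be given to either.

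Where the inner gene lay strictly inside, the outer gene was long and the inner gene of common length. The median length was 2190 bp for inner genes and 23190 bp for outer genes, beside 2163 bp for all protein-coding genes. The peak lay wholly inside the outer gene in 262 of 268 cases (97.8%) and wholly inside the inner gene in 112 (41.8%), so that many of these peaks are intervals within both bodies. It held the inner gene completely in 52 cases (19.4%) and the outer gene in none.

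The widest nested peak with named genes (3L 19898251 to 19907150, 8900 bp) lay over Mi-2 and Su(Tpl). Mi-2 encodes the remodelling ATPase of the NuRD complex and Su(Tpl) the elongation factor ELL; the peak covered 31.6% of Mi-2 and 43.9% of Su(Tpl), whose 20291 bp lie within Mi-2. A peak of 6850 bp (2R 12167301 to 12174150) covered 85.9% of Oda, the ornithine decarboxylase antizyme gene, and all of SmD3, a core protein of spliceosomal snRNPs, inside it. In both of these peaks each gene of the pair has a general cellular function.

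Other wide nested peaks joined genes of unlike function. At 3L 17488401 to 17496550, a peak of 8150 bp covered 33.2% of Oatp74D, the ecdysone importer gene, and with it all 421 bp of edin, a gene induced by infection. At 3R 28851251 to 28858150, a peak covered 27.4% of spg, a guanine nucleotide exchange factor gene of the DOCK family, and 77.1% of the gap junction gene Inx3. In Nrg, which encodes an L1-type adhesion protein of septate junctions, a peak of 6950 bp covered 18.4% of the gene and only 564 bp, or 13.1%, of the photoreceptor gene PIP82. The peak over Acsl, a long-chain acyl-CoA synthetase gene (43.0% covered), took in all 443 bp of UQCR-11L.

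Some long hosts carried a row of short peaks that entered the set only because of a second gene there. The pair of rg, an A-kinase anchor protein gene, and CG15465 has the same start and end in RefSeq (169106 bp) and held 12 peaks, from 200 to 2450 bp wide. In all, the 370 nested peaks fell on 289 distinct gene pairs, and 65 of them lay in 15 pairs with at least 3 peaks. Counted once per set of genes, a setting added after the values were seen, the nested share of all members was 29.8%.

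The share of nested pairs held by a peak differed between the forms. RefSeq has 182 pairs of protein-coding genes with the same start and end, and 57 of them (31.3%, interval 25.0 to 38.4) lay under a mid-width peak. Mocs2A and Mocs2B, which encode the small and large subunits of molybdopterin synthase, lay wholly under a peak of 3650 bp (3R 25123801 to 25127450). KP78a and KP78b, a pair of MARK-family kinase genes, had peaks of 1400 and 1300 bp. Each of these peaks also lay over another protein-coding gene. Both pairs were chosen as examples after their values were seen. Of pairs with 1 end in common, 51 of 107 were held (47.7%, interval 38.4 to 57.0), and of pairs strictly inside, 334 of 1532 (21.8%, interval 19.8 to 23.9). Over all 1821 nested pairs the share was 24.3%. Pairs are not separate loci. CG42379, CG42380, CG42381 and PIG-M have the same start and end and enter as several held pairs. Likewise tal-1A, tal-2A, tal-3A and tal-AA enter as several pairs with no peak.

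The classical shared locus of eIF2gamma and Su(var)3-9 belongs to the form with 1 common end. eIF2gamma encodes a subunit of a translation initiation factor, and Su(var)3-9 an H3K9 methyltransferase that shares its first exons. A peak of 4650 bp (3R 15258001 to 15262650) covered 82.8% of eIF2gamma and 77.5% of Su(var)3-9. Other textbook shared loci were outside the set. Gart had 1 peak, which did not reach Pcp nested in it, and pk had 4 peaks, of which the 1 over nec was outside the width limits. No peak lay on ChAT and VAChT, on Adh and Adhr, on stnA and stnB, or on dnc, Sgs4 and Pig1. Ada2a and Polr2D, which share 1 transcription unit, were under a single peak that was wider than the limit.

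Overlapping pairs mostly shared short ends. In the 367 overlapping peaks with exactly 2 genes, the shared stretch had a median length of 103 bp (quartiles 44 and 359 bp). The peak held the whole shared stretch in 271 cases (73.8%) and part of it in the other 96; a peak over both genes must touch it. Where it held the whole stretch, it reached a median of 1669 bp beyond it on the longer side and 602 bp on the shorter side. These peaks therefore extended into the unshared bodies of both genes. Over the whole class, 89.2% of peak sequence lay in exactly 1 gene and 8.46% in 2 or more.

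The widest overlapping peak with named genes (3R 26043201 to 26052400, 9200 bp) covered 82.1% of gro, the gene of the corepressor Groucho, and all of Exo84, an exocyst subunit gene. The bodies share 181 bp. A peak of 8750 bp over Caper, which encodes a splicing factor, and milt, which encodes an adaptor for mitochondrial transport, covered 90.7% of Caper and 22.7% of milt. Next to it in width, a peak of 8050 bp covered 89.1% of melt but only 3.62% of its neighbour corn. In the last of these peaks the covered shares of the 2 genes differed most.

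Both H4K20 methyltransferase genes were in this class. A peak of 4100 bp (3R 14316701 to 14320800) lay over Set8, of which it held 3794 bp (85.1%), and reached 610 bp (9.39%) into Afti, a gene of membrane trafficking. At Hmt4-20, whose product adds the further methyl groups to H4K20, a peak of 7800 bp (X 647201 to 655000) held 6518 bp of that gene (86.3%) and the whole of Roc1a, the RING subunit gene of cullin ubiquitin ligases. The peaks of l(3)mbt were not in the set, and His4r had no peak.

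A few overlapping pairs share long stretches and behaved like nested ones. The genes elav and arg share 13792 bp, and a peak of 3650 bp lay in both, covering 26.1% of elav, the neuronal RNA-binding protein gene, and 19.6% of arg, the arginase gene. The wing gene nub shares 17619 bp with Ref2, and 4 peaks of 200 to 1650 bp lay in both. Of the other genes looked up as markers of the disc or of other cell types, vg had no peak and ap, hth, Fas3 and Mef2 had only peaks outside the set. A peak of this mark is not a measure of a marker's expression. Syt1 of neurons, sls of muscle, Hml and srp of blood cells and Lsp1alpha of the fat body had no peak.

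Genome-wide, 549 of 1831 overlapping pairs lay under 1 mid-width peak (30.0%, interval 27.9 to 32.1). The length of the shared stretch made little difference. The share was 29.9% for pairs that share under 50 bp, 29.2% from 50 to under 100 bp, 29.2% from 100 to under 250 bp, 30.9% from 250 to under 1000 bp and 32.3% from 1000 bp, with overlapping intervals.

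Adjacent genes under 1 peak stood close together. In the 405 adjacent peaks with exactly 2 genes, the gap between the genes had a median of 121 bp (quartiles 49 and 252 bp) and ranged from 0 to 1551 bp. It was under 100 bp in 176 peaks (43.5%) and under 500 bp in 377 (93.1%), and took up a median of 4.46% of the peak width. Both edges of the peak lay inside a gene in 415 of all 468 adjacent peaks (88.7%), against 91.5% of all 1428 peaks and 92.5% of the 4029 peaks over 1 gene. In the class, 6.59% of peak sequence lay in no gene, against 1.31% in nested and 2.36% in overlapping peaks.

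The widest adjacent peak with named genes (2L 827101 to 836700, 9600 bp) covered 84.4% of dock, which encodes an SH2 and SH3 adaptor, and 17.8% of drongo, which encodes an ArfGAP, across a gap of 342 bp. A peak of 9350 bp covered all of Wdr59, a component of the GATOR2 complex in TOR signalling, and 96.7% of Ge-1, a processing body protein gene, which stand 53 bp apart. A peak of 9250 bp covered 82.6% of the SAGA subunit gene Spt20 and crossed 214 bp into Tgi, an inhibitor of Yorkie activity in the Hippo pathway, covering 11.1% of it. Of these, the peak over Wdr59 and Ge-1 was the one that took in nearly all of both.

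A peak of 9150 bp covered 83.4% of the Golgi protein gene lva and 13.8% of Vap33, which encodes a VAP protein of the endoplasmic reticulum. A peak of 8850 bp covered 93.9% of the kinase gene Ack and 38.4% of Chd64. A peak of 8600 bp covered 99.1% of snama, a ubiquitin ligase gene, and 48.4% of gek, a kinase gene. In each, the less covered gene lay under the peak for less than 50% of its body.

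In every peak with 2 genes, the genes were ordered by the share of their body under the peak, so the first value of each pair below cannot be the lower by construction. In adjacent peaks the more covered gene lay under the peak to a median of 71.9% of its body and the less covered one to 17.8%. The medians were 68.4% and 23.5% in overlapping peaks and 27.5% and 7.35% in nested peaks. Both genes were covered to at least 50% in 66 of 405 adjacent peaks (16.3%), 84 of 367 overlapping peaks (22.9%) and 33 of 370 nested peaks (8.92%). In 89 adjacent peaks the larger overlap, in bp, was more than 10 times the smaller.

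**Figure D3:**
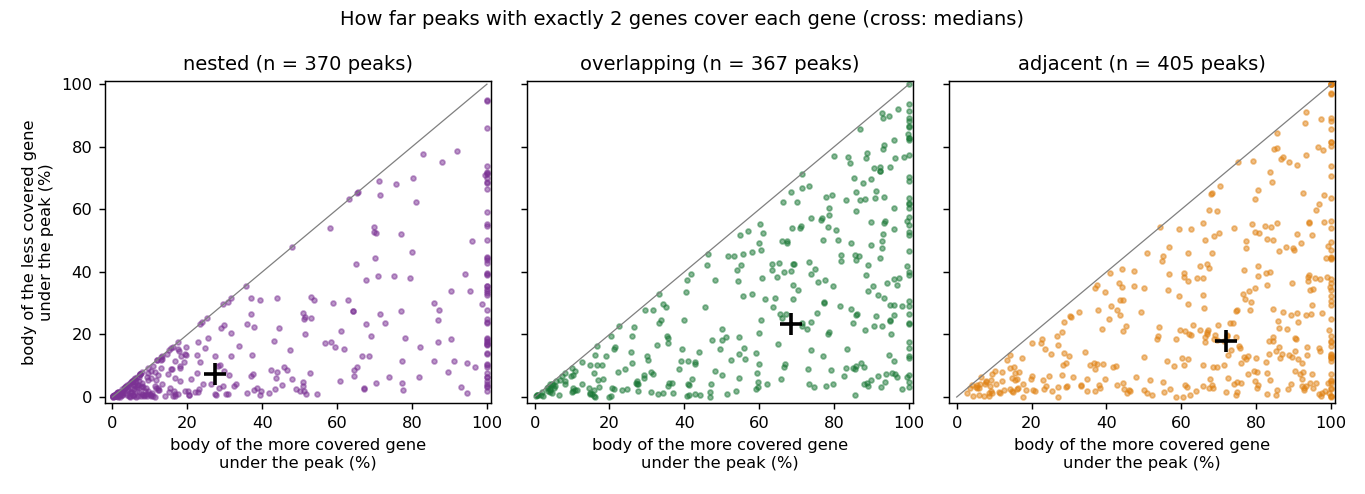
Share of the body under the peak for the more covered gene (horizontal axis, percent) and the less covered gene (vertical axis, percent) in each peak with exactly 2 genes, by class; each point is a peak, the line marks equal shares and the cross marks the medians. No point can lie above the line, since the genes are ordered by these shares; the medians are 71.9% and 17.8% in adjacent peaks, and nested peaks crowd near the origin.

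Peaks that held all their genes whole were few. Of 1428 peaks, 357 held at least 1 gene completely and 6 held every gene. Those 6 were over nito, CG14763 and CG8726; Rint1 and mrva; RpL14 and CG5989; CG7483 and Coq2; Sry-delta and RpL32; and CG4281 and CG14054. Sry-delta, a zinc finger gene of 1546 bp, and RpL32, a ribosomal protein gene of 933 bp, lay 342 bp apart under a peak of 3100 bp (3R 30043301 to 30046400).

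Neighbouring genes were less often under a common peak the farther apart they stood. The RefSeq table has 9452 neighbouring protein-coding pairs with a gap under 10000 bp, and 724 of them lay under 1 mid-width peak (7.66%, interval 7.14 to 8.21). For a gap under 100 bp the share was 19.8% (interval 17.9 to 22.0). It was 12.0% (interval 10.6 to 13.5) from 100 to under 250 bp, 8.06% (interval 6.97 to 9.32) from 250 to under 500 bp and 2.70% (interval 1.99 to 3.65) from 500 to under 1000 bp.

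A common peak must span the gap, which favours such a fall, and by itself it gives both genes a peak. The share also fell among pairs in which both genes had a peak, which for this reason is not a separate check. Of 506 such pairs with a gap under 100 bp, 346 (68.4%, interval 64.2 to 72.3) shared a peak of any width, against 208 of 646 (32.2%, interval 28.7 to 35.9) with a gap from 250 to under 500 bp and 54 of 297 (18.2%, interval 14.2 to 23.0) from 500 to under 1000 bp. The others had separate peaks. In the 834 pairs with a gap under 500 bp and separate peaks, the nearest peaks of the 2 genes lay a median of 2000 bp apart and at least 1050 bp, the smallest distance in the list. How far the authors' peak calling joined nearby intervals is not given in the sources used here, and its part in these shares was not tested.

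**Figure D4:**
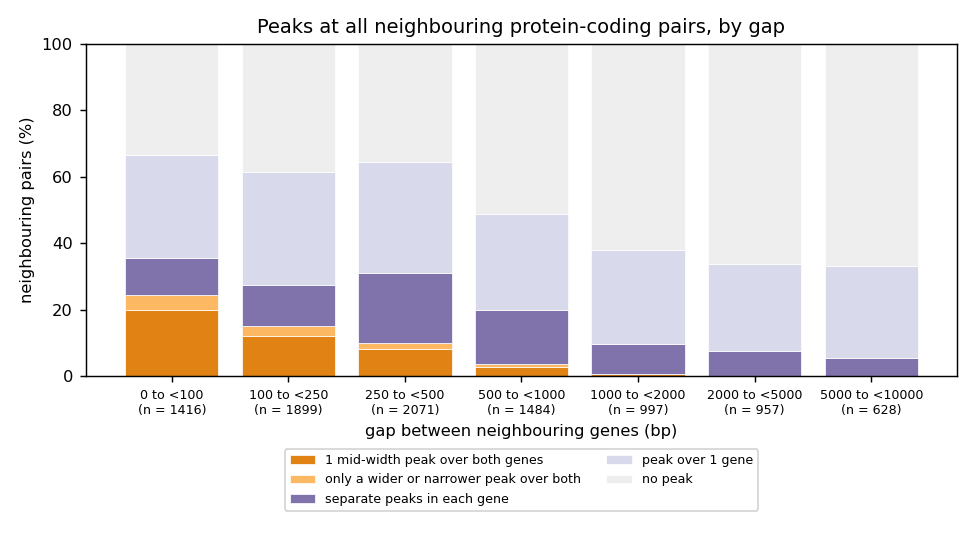
State of all neighbouring protein-coding pairs (vertical axis, percent of pairs) by the gap between the genes (horizontal axis, bp, with the number of pairs); colours give pairs under 1 mid-width peak, under only a wider or narrower peak, with separate peaks, with a peak over 1 gene and with none. Pairs under 1 mid-width peak fell from 19.8% at gaps under 100 bp to 2.70% from 500 to under 1000 bp, while separate peaks remained common.

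The peaks with most genes lay on runs of closely spaced or nested genes. The peak with 7 genes (2R 18293001 to 18300700, 7700 bp) lay in sbb, a long gene of which it covered 9.73%, and held CG18536, CG18537, CG18538, CG18539 and CG18540 whole and part of CG14502. The peak with 6 genes (3R 31743651 to 31752550, 8900 bp) held awd, the nucleoside diphosphate kinase gene, nero, which encodes deoxyhypusine hydroxylase, CG1896 and CG1910 whole. It also covered 78.8% of Tbca, a tubulin folding cofactor gene, and 25.2% of salt. Next came a peak of 9750 bp that held CG5902, Epp and the endosomal GTPase gene Rab7 whole, and a peak of 8850 bp that held Snap24, CG8478 and MED6 whole.

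In all, 2850 protein-coding genes lay under these peaks, which is 20.5% of the 13922 on the 6 chromosomes. Since 38.3% of all genes had a peak of any width, 53.4% of the genes with a peak were under a shared one. The median body was 2559 bp long, close to the 2163 bp of all protein-coding genes. Genes under mid-width peaks over 1 gene had a median of 6253 bp, a difference that an overlap rule favours. A shared peak covered a median of 38.7% of the gene body, and 443 genes lay wholly under 1 shared peak.

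Gene lists of protein synthesis had many members under shared peaks. Of 92 cytoplasmic ribosomal protein genes, 57 did (62.0%, interval 51.7 to 71.2), beside 20.5% of all genes, and these were 71.2% of the ribosomal protein genes with any peak, beside 53.4% of all genes with one. Most were in adjacent (30) or overlapping (21) peaks. RpS4 lay wholly under a peak of 7600 bp that also covered 86.0% of Srrm1, a splicing protein gene, and 23.0% of Syx13, a syntaxin gene. RpL4 lay wholly under a peak of 3950 bp between BCAS2 and mino, of which 28.5% and 10.3% were covered. In these 2 peaks the neighbours were covered in part, whereas CG5989 beside RpL14 and Sry-delta beside RpL32 lay wholly under the peak.

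A peak of 3350 bp held several genes of translation at once. It covered all of RpL12, 77.4% of RpL39 and 31.6% of eEF5, the gene of the translation factor that carries hypusine. Of 51 translation factor genes, 26 were under shared peaks (51.0%, interval 37.7 to 64.1), beside 20.5% of all genes. eEF1gamma lay wholly under a peak of 8050 bp with all of Cisd2 and 4.15% of Brd8. Of that peak, 4784 bp lay in no protein-coding gene. eIF3l lay wholly under a peak of 6500 bp with 81.5% of RhoGAP68F, a GTPase-activating protein gene.

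Aminoacyl-tRNA synthetase genes were under shared peaks in 14 of 33 cases (42.4%, interval 27.2 to 59.2), beside 20.5% of all genes. Of the synthetase genes with any peak, 51.9% were under a shared one, beside 53.4% of all genes with a peak. The peak of 5050 bp over ThrRS and Rab6 covered 88.3% of the first and all of the second, a Golgi GTPase gene, across 50 bp. That over GluProRS and AP-1sigma, a clathrin adaptor subunit gene, covered 76.6% and 87.1% across 259 bp.

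Mitochondrial ribosomal protein genes were under shared peaks in 26 of 73 cases (35.6%, interval 25.6 to 47.1). Respiratory chain genes were under them in 32 of 87 cases (36.8%, interval 27.4 to 47.3), both beside 20.5% of all genes. Of the genes with any peak, these were 70.3% and 62.7%, beside 53.4%. UQCR-C2, a core protein gene of complex III, lay wholly under a peak of 3200 bp with 92.7% of the proteasome gene Rpn12 and 20.3% of Syx8. A peak of 8100 bp held mRpL55 whole, 94.4% of ATPsynD, an ATP synthase subunit gene, and 12.5% of the kinase gene cdi. COX4, a subunit gene of cytochrome c oxidase, lay wholly under a peak of 1950 bp that reached 124 bp into sick.

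Proteasome genes were under shared peaks in 21 of 48 cases (43.8%, interval 30.7 to 57.7), beside 20.5% of all genes. Rpn1, a scaffold subunit gene, was wholly under a peak of 5150 bp that crossed 81 bp into Su(z)12, a Polycomb repressive complex gene, and covered 36.6% of it. Mediator and TFIID genes were under them in 20 of 40 cases (interval of the share 35.2 to 64.8%), 11 of these in overlapping peaks. MED14 and MED17 lay wholly under peaks of 6050 and 5950 bp, the first with 3.19% of CG13893 and the second with all of CG14313 and 34.6% of Ssdp.

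Replication genes were under shared peaks in 8 of 23 cases (34.8%, interval 18.8 to 55.1), none of them wholly. PolD1, the catalytic subunit gene of DNA polymerase delta, was covered to 71.0% with 53.9% of Arl1, and the helicase genes Mcm3 and Mcm2 to 46.4% and 39.7%. Orc2 was covered to 51.3% by a peak that entered the long gene rdx for 540 bp. Secretory pathway genes had 19 of 57 (33.3%, interval 22.5 to 46.3) and autophagy and sorting genes 14 of 47 (29.8%, interval 18.7 to 44.0). These were 46.3% of the 41 and 38.9% of the 36 with any peak, beside 53.4% of all genes with a peak. For such shares of genes with any peak no interval was computed in any list, so their differences from 53.4% are not judged here. The intervals of the replication list and of the autophagy list include the 20.5% of all genes. The coatomer gene alphaCOP lay wholly under a peak of 5900 bp with all of Bgb, and Atg101 wholly under a peak of 3150 bp that also lay over parts of S6KL and bnb. Of the genes with any peak, 21 of 30 proteasome genes, 26 of 40 translation factor genes, 20 of 31 Mediator and TFIID genes and 8 of 14 replication genes were under a shared one. Differences between lists in gene length and in the number of close neighbours were not tested.

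A small number of peaks joined genes of separate lists. At least 1 listed gene lay under 231 of the 1428 peaks, and 2 or more under 16, of which 3 held genes of a single list only. A peak of 4900 bp (3R 23355501 to 23360400) held all of RpS3, all of Sec13, a subunit gene of COPII coats and the nuclear pore, and 66.7% of ATPsynCF6. Narrow ones also occurred. A peak of 650 bp lay over 344 bp of Atg7 and 102 bp of Sec6, and one of 1150 bp over 60.5% of Atg12 and 78.5% of ND-SGDH. The single-list peaks lay over Taf10 and Taf10b, over COX5B and COX5BL, and over RpS14a and RpS14b. The last peak, of 9050 bp, also lay over Ubr3 and orion. RpS14a and RpS14b are close copies, and whether reads could be told apart between them was not tested. The peaks in this paragraph were named after their values were seen.

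**Figure D5:**
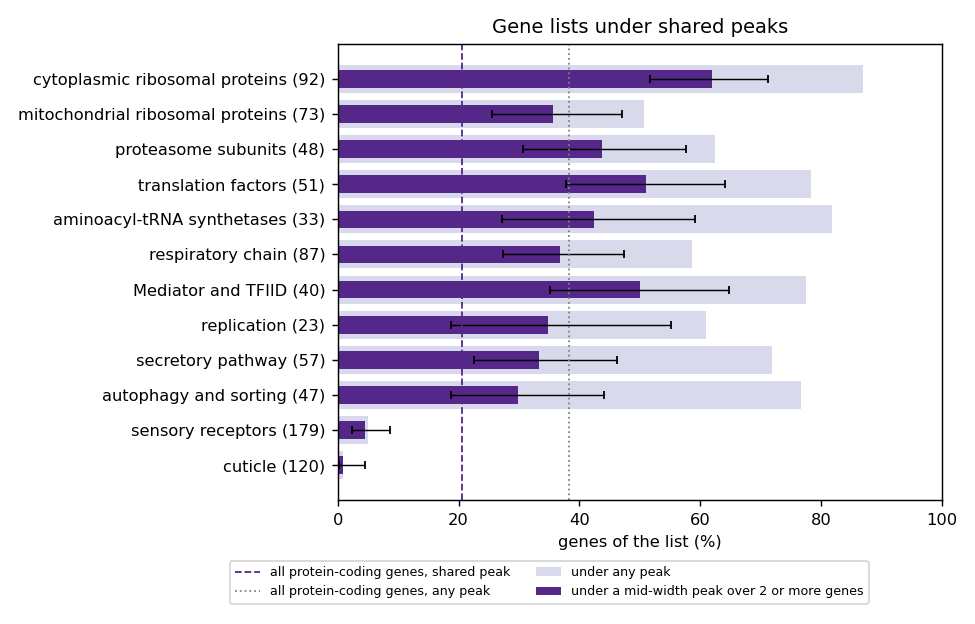
Share of each gene list (percent, number of genes in brackets) under a mid-width peak over 2 or more genes (dark bars, with 95% Wilson intervals) and under any peak (pale bars); the dashed and dotted lines mark 20.5% and 38.3%, the same shares of all protein-coding genes. Cytoplasmic ribosomal protein genes stand highest at 62.0%, and sensory receptor and cuticle genes lie near 0 with nearly all of their few peaks shared.

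Sensory receptor genes seldom had a peak. Of 179 odorant, gustatory and ionotropic receptor genes 9 had any peak (5.03%, beside 38.3% of all genes). Shared mid-width peaks lay over 8 of these (4.47% of the list, interval 2.28 to 8.57, beside 20.5% of all genes). The 8 are named here after their values were seen, beyond the rule for named genes. Gr43a, a fructose receptor gene, was wholly under a peak of 6900 bp with 69.7% of the helicase gene Dhx15 and 71.4% of Glo1, the glyoxalase gene. Ir51b lay wholly inside row, which was covered to 94.7%, and Or43b was covered to 99.8% beside Cul1, the cullin gene, which was covered to 84.2%. Each of these receptors thus shared its peak with a gene that was covered over most of its body.

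The other receptor genes were covered in part. Ir93a was entered for 1142 bp (13.9%) by a peak that covered all of RpS30, across 281 bp. Or2a was covered to 53.9% beside fs(1)K10, an oogenesis gene covered to 62.5%. Or65c was covered to 28.7% beside CG13300, Gr77a to 64.4% inside CG13252 and Ir100a to 10.4% in a peak of 350 bp shared with CG42233. Of 120 cuticle genes 1 had a peak (0.833%, beside 38.3% of all genes with any peak and 20.5% under a shared one). It was Cpr73D, where a peak of 3800 bp over Ogdh, the 2-oxoglutarate dehydrogenase gene, took in 4.24% of it.

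Non-coding genes also lay in these peaks. Genes of small nucleolar RNAs, which are processed from introns of host transcripts and guide rRNA modification, lay in 35 peaks (2.45%, interval 1.77 to 3.39), against 21 of 4029 peaks over 1 gene (0.521%, interval 0.341 to 0.796). Per Mb of peak the numbers were 7.61 and 2.87 peaks. The 3 with most held 17, 15 and 14 such genes, over CG10949, Arpc2 and CG15130, over CG6424 and CG46315, and over mei-218, mei-217 and RpS5a; they are named after their values were seen. Antisense RNA genes lay in 58 peaks (4.06%), or 12.6 per Mb, against 62 peaks over 1 gene (1.54%), or 8.47 per Mb. Genes of long non-coding RNAs lay in 43 peaks (3.01%), or 9.36 per Mb, against 88 peaks over 1 gene (2.18%), or 12.0 per Mb, so that their number per Mb was lower. For microRNA genes the numbers were 9 and 22 peaks, or 1.96 and 3.01 per Mb. Neither strand nor sequence was used here, so the direction of the genes under a peak is not described.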

How the data were processed

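H4K20me1 was profiled by CUT&RUN. For Oregon-R discs the authors deposited 1 list of peaks with chromosome, first base, last base and width in bp, and no score. Per the submitters' processing notes the build is dm6, and Bowtie2, SAMtools, bedtools, edgeR and deepTools are listed with no role. How peaks were called, at what threshold and on which libraries is not given in the sources used here; the depth per library is unknown.

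Peaks were overlapped with the NCBI RefSeq gene table of the same assembly in Python 3.11.15 with pandas 2.3.3, numpy 2.4.6 and scipy 1.17.1. Gene bodies include introns and untranslated regions. Denominators of genes and pairs use 2L, 2R, 3L, 3R, X and 4. Neighbouring pairs have no protein-coding gene in the gap. The overlap and class functions were tested on simulated intervals. Planned descriptions of gene direction, gene starts and promoter motifs, which need strand or sequence, were not run.

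The members, the gene lists and the comparisons were chosen with earlier results of these data known. Named peaks follow a rule: those with most genes, the widest and the wholly covered named 2-gene peaks of each class, up to 4 genes per list by covered share, the H4K20 methylation genes, and textbook shared loci. Exceptions are said to be named after their values were seen. Alternatives changed the smallest overlap, the gene table, the width limits and the way classes were counted.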

Additional observations from a re-analysis of the deposited data

How the results depend on the processing

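Of 48 values recomputed under another setting, 28 stayed within the 95% interval of the main value (for counts of peaks, within 1.5 times) and 20 moved. The number of peaks fell from 1428 to 890 when each gene had to be overlapped by at least 500 bp, with a nested share of 36.3%, and to 741 when CG-numbered genes were left out, with 21.9% nested and 44.1% adjacent. With all annotated genes the nested, overlapping and adjacent shares were 44.3%, 30% and 25.7%. With a lower width limit of 500 bp, 29.5% were nested and 35.8% adjacent; among peaks with exactly 2 genes 35.5% were adjacent. With gene bodies cut to the peak, 41% were nested and 26.2% overlapping. With each set of genes counted once, an alternative added after the data were seen, 29.8% were nested. At an overlap of at least 100 bp the median smaller overlap rose from 27% to 31.8% of the peak, 27% of overlapping pairs and 6.51% of adjacent pairs were held. With peaks of any width, 30.4% of nested, 35.6% of overlapping and 9.56% of adjacent pairs were held. Some of these moves follow from construction: a stricter overlap or a shorter gene table leaves fewer peaks, and cutting a body to the peak turns some overlapping pairs into nested ones. The cause of the others was not tested.

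No paired analysis was possible because the single peak list carries no value per library. For the same reason no replicate was left out. Alternatives on gene direction were not run, since strand was not used. The list has neither scores nor depth, so how far signal under genes with no peak fell short of a call is unknown.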
